A study of Mus musculus with 6 samples.

Results

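The genes described are 39 nuclear genes that encode subunits of respiratory complexes II, III, IV and V, together with somatic cytochrome c. They were taken by gene name from a table of 24421 mouse genes, and all 39 were present and passed the filter of a mean of at least 1 CPM (reads per 1000000 counted reads), as did 12710 genes in all. RNA was measured in E14 mouse embryonic stem cells, an established pluripotent line, in 2 libraries of Pml-/- cells and 2 libraries of wild-type cells. Pml encodes the protein that organises PML nuclear bodies. All 4 libraries came from cells given 10 µM paraquat for 15 h and kept in medium with serum, leukemia inhibitory factor, CHIR99021 (a GSK3 inhibitor) and PD0325901 (a MEK inhibitor). Paraquat is a herbicide that passes electrons to oxygen and so produces superoxide. Each difference below is therefore one between Pml-/- and wild-type libraries of treated cells, and untreated cells were not analysed here. Any other difference between the 2 sets of cells cannot be told apart from that of Pml. The labels do not say how the Pml-/- cells were made, from how many clones, or whether replicates were separate cultures, and a p-value here reflects no more than the spread among the libraries.

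The respiratory chain of the inner mitochondrial membrane hands electrons to oxygen. Complex II (succinate dehydrogenase) takes them from succinate to coenzyme Q, complex III (the cytochrome bc1 complex) passes them on to cytochrome c, and complex IV (cytochrome c oxidase) reduces oxygen. Complexes III and IV pump protons, and the proton gradient drives complex V, the ATP synthase. Apart from complex II, each complex combines subunits encoded in the nucleus with subunits encoded in mitochondrial DNA. Of the 13 mitochondrially encoded subunits, a count that includes those of complex I, 0 are in the table used here.

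The libraries held 38150397 and 43715807 reads in the knockout and 31384794 and 44130093 in wild type, so that 1 CPM was 31.4 to 44.1 reads. Pml itself had 78.7 and 89.7 CPM in knockout cells and 238 and 228 CPM in wild-type cells, which matched the labels. The lowest log2 fold change of all tested genes, knockout minus wild type, was -4.28, for Eif2s3y. Its cause was not tested. All 8 pluripotency markers were present at 242 to 1371 CPM. Their summed level was 6891 and 6903 CPM in the knockout and 6723 and 6837 CPM in wild type, and 2 of the 8 were called (25%, against 5.41% of all tested genes), Tfcp2l1 higher and Zfp42 lower in the knockout. Fibroblast markers, for cells that could be feeders, reached 1 CPM in every library for 2 of 7 genes. They summed to 11.5 and 9.10 CPM in the knockout and 8.25 and 8.996 CPM in wild type, with Dcn at 0 throughout. Primitive endoderm markers reached 1 CPM in every library for 2 of 6 genes and summed to 8.47 and 11.1 CPM in the knockout and 9.62 and 8.18 CPM in wild type. The library entry of wild-type replicate 2 names a kit for DNA alone, while those of the other 3 name an RNA kit. The labels do not say whether it was prepared in another way. Without this library the count of members called was unchanged, at 1 higher and 0 lower.

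Transcripts of the 39 subunits differed little between the genotypes, as did most other genes at their levels. Cox5b, a zinc-binding subunit of complex IV, rose 1.19-fold in knockout cells, and it was the single member past the threshold. It was 1 of 39 members called in either direction (2.56%), against a background of 5.41% of all tested genes and 6.52% of those in the members' range of levels. By direction, 1 of 39 was called higher, against 1.95% of all tested genes, and 0 of 39 lower, against 3.45%. On recovered reads edgeR also called 1 of 39 (4.19% of the genes it tested), and the authors' deposited table gave a false discovery rate under 0.05 to 1 of 39, against 3.8% of all genes listed. Together the 39 genes took 1.00 and 0.992% of all reads in the knockout and 1.01 and 1.01% in wild type. The test was limma on log2(CPM + 1) over all 12710 genes, with an adjusted p under 0.05 as the threshold. In bulk RNA of this kind, fewer cells of a type and less RNA per cell cannot be told apart.

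**Figure D1:**
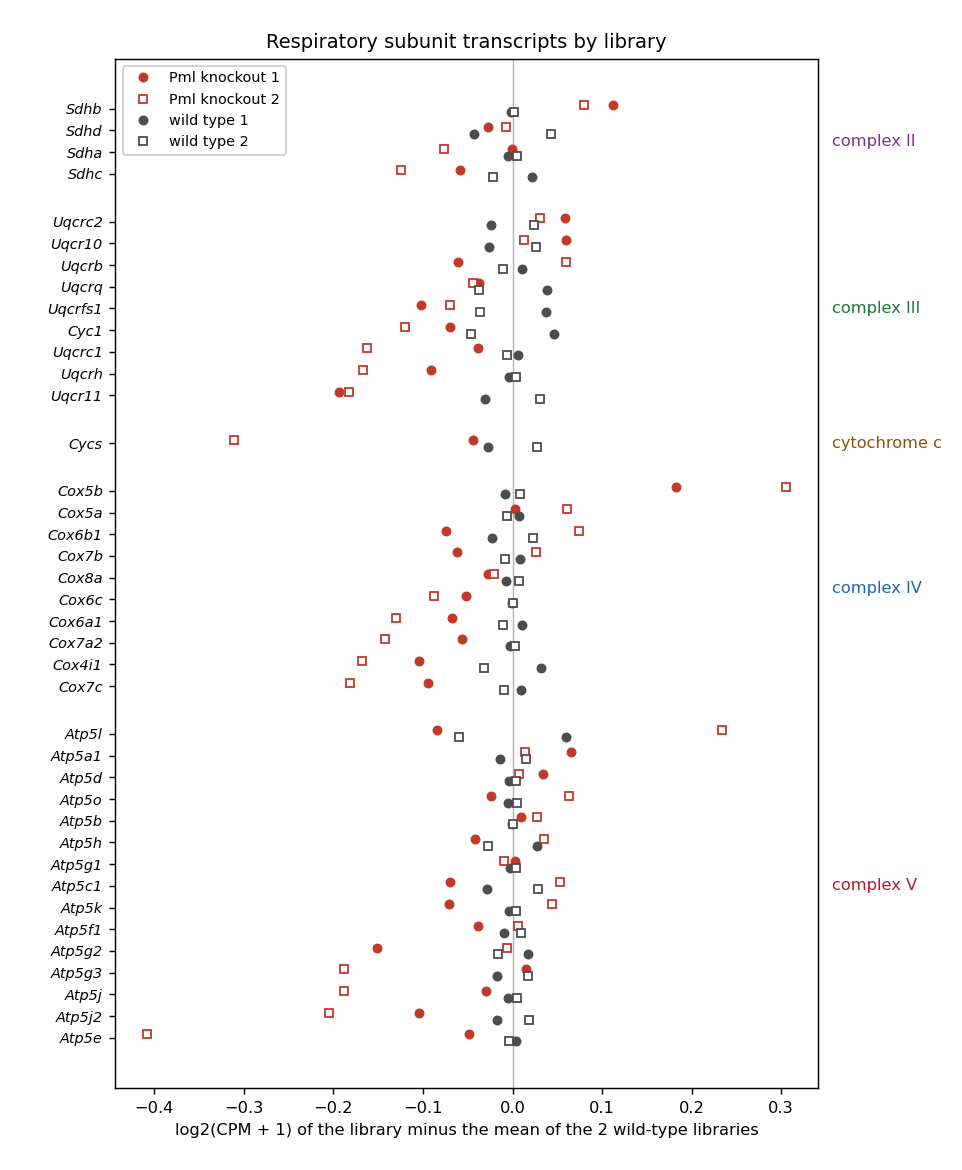
Level of each of the 39 subunit transcripts in each library, as log2(CPM + 1) minus the mean of the 2 wild-type libraries (x axis), grouped by complex down the page. Filled circles are replicate 1 and open squares replicate 2, in red for the Pml knockout and grey for wild type. Both knockout points of Cox5b lie to the right of wild type, and knockout 2 lies farthest left for Atp5e and Cycs.

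The narrowness of these differences can be stated from their intervals. For 36 of the 39 members (92.3%) the 95% interval of the log2 fold change lay between a rise of 25% and a fall by the same factor, and for all 39 it lay within the wider bound of 50%. The exceptions to the narrower bound were Cox5b, Cycs and Atp5e. The same bound held for 60.8% of all tested genes, and for 91.5% of the 5870 genes whose mean lay within the members' range of 35.1 to 2587 CPM. The members were read deeply, with 1145 to 114526 reads per gene and library.

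Most of the small differences pointed downward. Of the 39 log2 fold changes, knockout minus wild type, 29 were below 0 (74.4%), against 51% of all tested genes. Their median was -0.02, against -0.003 for all tested genes, and they ran from -0.23 for Atp5e to 0.24 for Cox5b. In 16 members (41.0%) both knockout libraries lay below both wild-type libraries, against 25.5% of all tested genes, and in 5 (12.8%) both lay above, against 23.8%. The groups overlapped in the other 18. Before adjustment 7 members had a p under 0.05 in the downward direction (17.9%, against 10.8% of tested genes) and 1 in the upward direction (2.56%, against 8.54%). The wild-type libraries were close to each other at these genes, with a median absolute difference of 0.020 on the log2 scale, while the knockout libraries differed by 0.076. Over all tested genes these medians were 0.082 within the knockout and 0.075 within wild type.

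**Figure D2:**
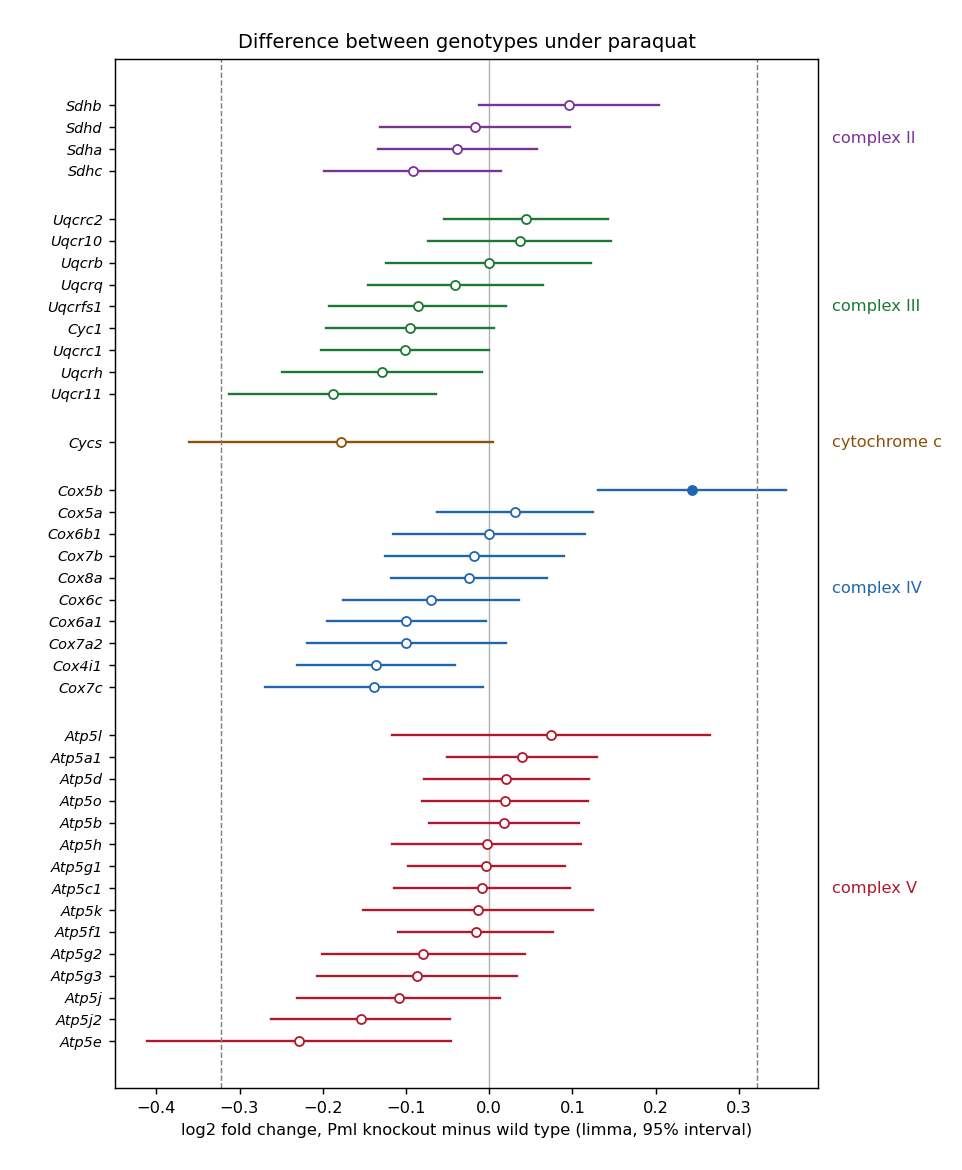
Log2 fold change of each member, Pml knockout minus wild type (x axis), with its 95% interval from limma (n = 2 libraries per genotype), coloured by complex. The filled point is Cox5b, with an adjusted p under 0.05, and the dashed lines mark a rise of 25% and a fall by the same factor. Points to the left of 0 number 29 of 39.

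Nuclear genes of the respiratory chain are known for promoters with sites for NRF1 (nuclear respiratory factor 1), for ETS-family factors such as GABP and for YY1. RefSeq gave a promoter window, 250 bases before to 50 after the transcription start, for 31 of the 39 members. The promoter of Cox5b, the called member, is printed first. The other 4 are examples of members with a match and with both knockout libraries below wild type. Chosen in this way, they cannot show whether a match goes with a fall. All are 5′ to 3′ on the gene's own strand, in the GRCm38.p6 build. Capitals mark matches, on either strand, to the letters CGCNTGCGC (NRF1), CCGGAAG (ETS) or AAGATGG (YY1).
Cox5b: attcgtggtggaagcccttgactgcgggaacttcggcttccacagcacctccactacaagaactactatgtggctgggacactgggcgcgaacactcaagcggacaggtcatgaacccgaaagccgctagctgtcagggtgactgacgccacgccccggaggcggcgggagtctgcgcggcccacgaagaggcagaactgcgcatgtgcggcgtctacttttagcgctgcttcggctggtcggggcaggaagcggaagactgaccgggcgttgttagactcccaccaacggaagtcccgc
Uqcr11: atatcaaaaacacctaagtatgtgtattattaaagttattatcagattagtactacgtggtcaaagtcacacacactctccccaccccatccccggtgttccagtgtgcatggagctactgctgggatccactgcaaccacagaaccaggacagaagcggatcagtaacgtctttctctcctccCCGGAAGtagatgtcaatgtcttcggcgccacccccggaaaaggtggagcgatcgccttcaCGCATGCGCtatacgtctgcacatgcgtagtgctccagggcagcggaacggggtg
Cox6a1: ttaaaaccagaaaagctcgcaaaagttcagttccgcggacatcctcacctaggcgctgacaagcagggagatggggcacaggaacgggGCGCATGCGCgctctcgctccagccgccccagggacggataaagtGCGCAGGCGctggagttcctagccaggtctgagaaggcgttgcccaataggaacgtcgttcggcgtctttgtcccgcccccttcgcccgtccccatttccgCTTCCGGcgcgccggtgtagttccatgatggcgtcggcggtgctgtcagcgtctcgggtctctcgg
Atp5j2: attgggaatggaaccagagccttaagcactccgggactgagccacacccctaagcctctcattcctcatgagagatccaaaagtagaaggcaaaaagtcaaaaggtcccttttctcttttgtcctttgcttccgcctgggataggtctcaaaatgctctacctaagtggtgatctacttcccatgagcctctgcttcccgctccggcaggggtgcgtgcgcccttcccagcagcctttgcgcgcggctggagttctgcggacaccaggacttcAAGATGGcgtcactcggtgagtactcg
Atp5j: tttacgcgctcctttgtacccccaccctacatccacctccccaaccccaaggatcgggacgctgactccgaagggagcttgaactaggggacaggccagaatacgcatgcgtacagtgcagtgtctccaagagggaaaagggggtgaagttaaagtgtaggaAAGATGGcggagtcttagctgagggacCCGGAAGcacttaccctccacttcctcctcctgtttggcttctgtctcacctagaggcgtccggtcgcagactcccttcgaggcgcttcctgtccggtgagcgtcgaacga
The windows are chr1:36691237-36691536 on the plus strand for Cox5b, chr10:80406772-80407071 on the minus strand for Uqcr11 and chr5:115348909-115349208 on the minus strand for Cox6a1. Those of Atp5j2 and Atp5j, both on the minus strand, are chr5:145191492-145191791 and chr16:84834927-84835226, the last being 1 of 2 annotated starts. Cox6a1 held NRF1 matches that begin 162, 161 and 117 bases before the start, the first 2 of which overlap, and an ETS match 16 bases before it. Uqcr11 had an ETS match 66 bases before the start and an NRF1 match from 5 bases before it, and Atp5j2 a YY1 match that begins 23 bases after it. Atp5j had a YY1 match 88 bases and an ETS match 61 bases before its start. In the Cox5b window none of the 3 sets of letters was present, as for 9 of the 31 members in all. Only exact letters were searched, so a site that differs from them would be missed.

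These letters were frequent among the members. At least 1 of the 3 motifs was found in 22 of 31 windows (71.0%), against 37.6% of the 10102 tested genes that have a window. The NRF1 letters were in 13 of 31 (41.9%, against 15.5%), the ETS letters in 12 (38.7%, against 20.1%) and the YY1 letters in 4 (12.9%, against 8.45%). The median log2 fold change was -0.04 in members with the NRF1 letters and -0.02 in those without, and for ETS it was -0.02 in both. For YY1 the medians were -0.12 in the 4 members with the letters and -0.02 in the 27 without. Close divergent starts were also frequent. A gene on the opposite strand began within 1000 bases of 11 of 31 members (35.5%), against 20.2% of tested genes with a window. One such pair is Atp5j and Gabpa, the DNA-binding subunit of GABP, whose starts lie 148 bases apart. Gabpa had 210.5 and 218 CPM in knockout cells and 207 and 208 CPM in wild-type cells (log2 fold change 0.05, adjusted p = 0.627).

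Complex II is made by 4 nuclear genes, and none was called. Sdha, the flavoprotein that oxidises succinate, had 278 and 263 CPM in the knockout and 277 and 279 CPM in wild type (log2 fold change -0.04, adjusted p = 0.706). Sdhb, the iron-sulfur subunit, had 105 and 103 CPM in the knockout and 97.1 and 97.3 CPM in wild type (0.10, adjusted p = 0.325). It was the only member of the complex with both knockout libraries above wild type. The membrane anchors hold the coenzyme Q site. Of these, Sdhc had 128 and 122 CPM in the knockout against 135 and 131 CPM in wild type, with no overlap (-0.09, adjusted p = 0.342). Sdhd had 94.3 and 95.6 CPM in the knockout against 93.3 and 99.0 CPM in wild type, with the wild-type libraries on either side of the knockout. Summed over the complex, the level was 605 and 584 CPM in the knockout and 602 and 606 CPM in wild type.

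Complex III gave the lowest median of the 4 complexes, a log2 fold change of -0.09 over 9 genes, with 0 of 9 called. Both knockout libraries lay below wild type in 5 of the 9 (55.6%). The share was 60% in complex IV and 25.5% over all tested genes. In complex III the smallest p belonged to Uqcr11, a small membrane subunit, with 57.5 and 58.0 CPM in knockout cells and 64.6 and 67.4 CPM in wild-type cells. Its log2 fold change was -0.19 (SE 0.059, 95% interval -0.31 to -0.06), and its adjusted p of 0.0791 missed the threshold. Uqcrh, the hinge protein beside cytochrome c1, had 73.1 and 69.3 CPM in the knockout and 77.7 and 78.1 CPM in wild type (-0.13, SE 0.056, adjusted p = 0.222). In both genes the groups were apart, by more than either group's own spread.

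The redox subunits of complex III had differences near that median. Cyc1, cytochrome c1, had 247 and 239 CPM in the knockout and 268 and 252 CPM in wild type (-0.10, adjusted p = 0.289). Uqcrfs1, the Rieske iron-sulfur protein, had 125 and 128 CPM in the knockout and 138 and 131 CPM in wild type (-0.09, adjusted p = 0.380). The groups did not overlap in either gene, and neither difference passed the test. The core proteins on the matrix side split. Uqcrc1 had 373 and 342 CPM in the knockout and 385 and 382 CPM in wild type (-0.10, adjusted p = 0.259), while Uqcrc2 had 182 and 178 CPM in the knockout and 172 and 177 CPM in wild type (0.04, adjusted p = 0.666). The remaining small subunits, Uqcrb, Uqcrq and Uqcr10, had log2 fold changes between -0.04 and 0.04, with overlapping groups. The summed level of the complex was 1378 and 1337 CPM in the knockout and 1429.6 and 1407 CPM in wild type, both knockout sums being lower.

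Cycs, somatic cytochrome c, carries electrons from complex III to complex IV and triggers apoptosis when released from mitochondria. It had 36.04 and 29.8 CPM in knockout cells and 36.5 and 37.9 CPM in wild-type cells. Knockout replicate 1 lay next to wild type and knockout replicate 2 well below it. The log2 fold change was -0.18 (SE 0.086, 95% interval -0.36 to 0.005, adjusted p = 0.272). RefSeq lists 3 pseudogenes named after Cycs, and the treatment of reads that match several genes is not stated, which leaves its level uncertain.

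Complex IV held the called member. Cox5b, at chr1:36691487-36693388 in GRCm38.p6, had 135 and 147 CPM in knockout cells and 118 and 119 CPM in wild-type cells, or 141 ± 8.53 CPM against 119 ± 0.945 CPM (SD, n = 2 each). Both knockout libraries lay above both wild-type libraries. The log2 fold change was 0.24 (SE 0.053, 95% interval 0.13 to 0.36, adjusted p = 0.0132 by limma). In the authors' deposited table Cox5b had a log2 fold change of -0.25, written there as wild type over knockout, with a false discovery rate of 0.00916. The call rested on knockout replicate 2: without it the log2 fold change was 0.18, with an adjusted p of 0.0998, and with no filter on low values the adjusted p was 0.0547. RefSeq lists 1 pseudogene named after Cox5b, so that reads shared with it cannot be told apart here.

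The other 9 subunits of complex IV were not called, and 8 of the 10 log2 fold changes in the complex were below 0 (median -0.05). Cox4i1, the largest nuclear subunit and a site of regulation by ATP, had 415 and 397 CPM in the knockout and 456 and 436 CPM in wild type (log2 fold change -0.14, SE 0.044, adjusted p = 0.0944). It lies on chromosome 8, where the median log2 fold change of 681 tested genes was -0.06, against medians of -0.02 to 0.03 on the other chromosomes. Of those 681 genes 52 were called lower and 8 higher, against 439 lower and 248 higher of all 12710 tested genes. The part of the chromosome in the Cox4i1 value was not tested. Cox7c, a small membrane subunit, had 54.9 and 51.7 CPM in the knockout and 59.1 and 58.3 CPM in wild type (-0.14, SE 0.061, adjusted p = 0.232). Cox6a1, the widely expressed form of subunit 6a, had 256 and 245 CPM in the knockout and 271 and 267 CPM in wild type (-0.10, adjusted p = 0.237). In Cox4i1, Cox7c and Cox6a1 both knockout libraries lay below wild type.

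The knockout libraries also lay below wild type in Cox7a2, with 76.7 and 72.2 CPM in the knockout and 79.6 and 80.0 CPM in wild type (log2 fold change -0.10), and in Cox6c and Cox8a (-0.07 and -0.02). Cox5a, which binds the matrix face beside Cox4i1, had 274 and 285 CPM in the knockout and 275 and 272 CPM in wild type (0.03, adjusted p = 0.758). Cox6b1, on the intermembrane side, had 153 and 169 CPM in the knockout and 158 and 163 CPM in wild type. Cox7b, a small membrane subunit, had 128 and 136 CPM in the knockout and 135 and 133 CPM in wild type. In both, the wild-type values lay inside the knockout range. The sum over complex IV was 1818 and 1827 CPM in the knockout and 1883 and 1864 CPM in wild type, so that the sum was lower in the knockout while Cox5b was higher.

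Complex V had the median nearest to 0, a log2 fold change of -0.01 over 15 genes, with 0 of 15 called and overlapping groups in 10. Both knockout libraries lay below wild type in 3 (20%, against 25.5% of all tested genes) and above in 2 (13.3%, against 23.8%). Its summed level was 6172 and 6137 CPM in the knockout and 6112 and 6164 CPM in wild type. In the F1 head, where ATP is made, Atp5a1 (the alpha subunit) had 1555 and 1501 CPM in the knockout and 1472 and 1502 CPM in wild type (0.04, adjusted p = 0.675). Atp5b (the catalytic beta subunit) had 2587 and 2619.8 CPM in the knockout and 2570.3 and 2572 CPM in wild type (0.02, adjusted p = 0.867). These genes and the central stalk genes Atp5c1 and Atp5d had log2 fold changes between -0.01 and 0.04.

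Atp5e, the epsilon subunit of the central stalk, stood apart from them. It had 75.4 and 58.6 CPM in knockout cells and 78.3 and 77.8 CPM in wild-type cells. Knockout replicate 2 was far below the other 3 libraries, and knockout replicate 1 just below wild type. The log2 fold change was -0.23 (SE 0.086, 95% interval -0.41 to -0.05, adjusted p = 0.150). Without knockout replicate 1 the adjusted p was 0.00188, and 5 of 39 members were called lower (Atp5e, Atp5j2, Atp5g3, Cox4i1 and Uqcrc1), against 3.31% of all genes tested in that fit. That fit leaves 1 knockout library, which is assumed to vary like the wild-type libraries. With all 4 libraries and genotype as the only term, 0 members were called lower. With replicate number added as a term, Uqcr11, Atp5e and Atp5j2 were called lower, against 5.66% of all genes in that fit.

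The ring that turns with proton flow is built from subunit c, for which Atp5g1, Atp5g2 and Atp5g3 encode the same mature protein. Atp5g1 had 215 and 213 CPM in the knockout and 214 and 215 CPM in wild type (log2 fold change -0.00, adjusted p = 0.978). Atp5g2 had 92.3 and 102 CPM in the knockout and 104 and 101 CPM in wild type (-0.08, adjusted p = 0.499). Atp5g3 had 325 and 283 CPM in the knockout and 318 and 326 CPM in wild type (-0.09, adjusted p = 0.444). In Atp5g2 the lower knockout library was replicate 1 and in Atp5g3 it was replicate 2, and in all 3 paralogs the groups overlapped.

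The peripheral stalk keeps the F1 head from turning. Among its 4 genes Atp5j (subunit F6) had 115 and 103 CPM in the knockout and 117 and 118 CPM in wild type (log2 fold change -0.11, adjusted p = 0.321), without overlap. Atp5f1, Atp5h and Atp5o (the oligomycin sensitivity subunit) had log2 fold changes between -0.02 and 0.02, with overlapping groups. Of the small membrane subunits, Atp5j2 (subunit f) had 148 and 138 CPM in knockout cells and 157 and 161 CPM in wild-type cells. Its log2 fold change was -0.15 (SE 0.050, 95% interval -0.26 to -0.05), with an adjusted p of 0.0940. Atp5k and Atp5l, subunits e and g, had overlapping groups and log2 fold changes of -0.01 and 0.07, and RefSeq lists 4 and 2 pseudogenes named after them. Differences between the complexes were not tested.

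Genomic overlap limits some of these levels. The spans of 13 members overlap another annotated gene, which is protein-coding for 6 of them, and 6 members have pseudogenes named after them. The labels do not say whether counting used strand. Cox5b, Uqcr11, Cox4i1, Atp5e and Atp5j2 are not among the 13, while Uqcrh, Cox7c and Atp5j are. Cox5b and Uqcrh are among the 6 with pseudogenes.

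Isoforms used in particular tissues were mostly near or below the limit of the test: 3 of 8 reached a mean of 1 CPM. Of these 3, 1 was called (33.3%, against 5.41% of all tested genes), and the others of the 8 were not tested. Cyct, the cytochrome c of the testis, fell in the knockout, with 1.15 and 1.26 CPM in knockout cells and 3.38 and 2.56 CPM in wild-type cells. These are 44 and 55 reads in the knockout and 106 and 113 reads in wild type. The means were 1.21 ± 0.074 CPM and 2.97 ± 0.578 CPM (SD, n = 2 each), 2.46-fold lower in the knockout. With 1 added before the log, a change at so low a level is understated, and the log2 fold change was -0.84 (SE 0.169, adjusted p = 0.00832 by limma). In the authors' deposited table the false discovery rate of Cyct was 5.19e-06. Cox6b2, the testis form of subunit 6b, had 34.2 and 31.5 CPM in the knockout and 41.0 and 32.5 CPM in wild type (-0.15, adjusted p = 0.432), and without wild-type replicate 2 its adjusted p was 0.0304. Cox7a1, the form of heart and skeletal muscle, had 7.92 and 7.96 CPM in the knockout and 8.44 and 10.4 CPM in wild type (-0.22, adjusted p = 0.373).

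Proteins that assemble the complexes were tested for 35 of 38 listed genes, and 0 rose while 2 fell (5.71% called, against 5.41% of all tested genes), with a median log2 fold change of 0.01. Both belong to complex IV and both are known as copper chaperones. Sco1, which helps to load copper into subunit 2, had 34.7 and 31.6 CPM in the knockout and 41.3 and 43.5 CPM in wild type. It fell to 33.1 ± 2.17 CPM in the knockout, against 42.4 ± 1.58 CPM in wild type (SD, n = 2 each), 1.28-fold lower (log2 fold change -0.35, SE 0.073, adjusted p = 0.0108). Without knockout replicate 2 its adjusted p was 0.0937. Cox17, which hands copper to Sco1 and Cox11, had 57.4 and 60.3 CPM in the knockout and 69.7 and 68.0 CPM in wild type, 1.17-fold lower (-0.22, SE 0.059, adjusted p = 0.0372). Leaving out any single library ended the Cox17 call (adjusted p 0.0579 to 0.196), and edgeR (0.0503) and DESeq2 (0.0947) on recovered reads did so too, as did removing the filter on low values (0.0736). In the authors' deposited table the false discovery rate was 0.0291 for Cox17 and 0.000974 for Sco1. The remaining assembly factors, 4 for complex II, 6 for complex III, 20 others for complex IV and 3 for complex V, were not called. Among them Cox11 had 34.2 and 30.8 CPM in the knockout and 30.6 and 34.0 CPM in wild type. Its groups overlapped (log2 fold change 0.009, adjusted p = 0.970 by limma).

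**Figure D3:**
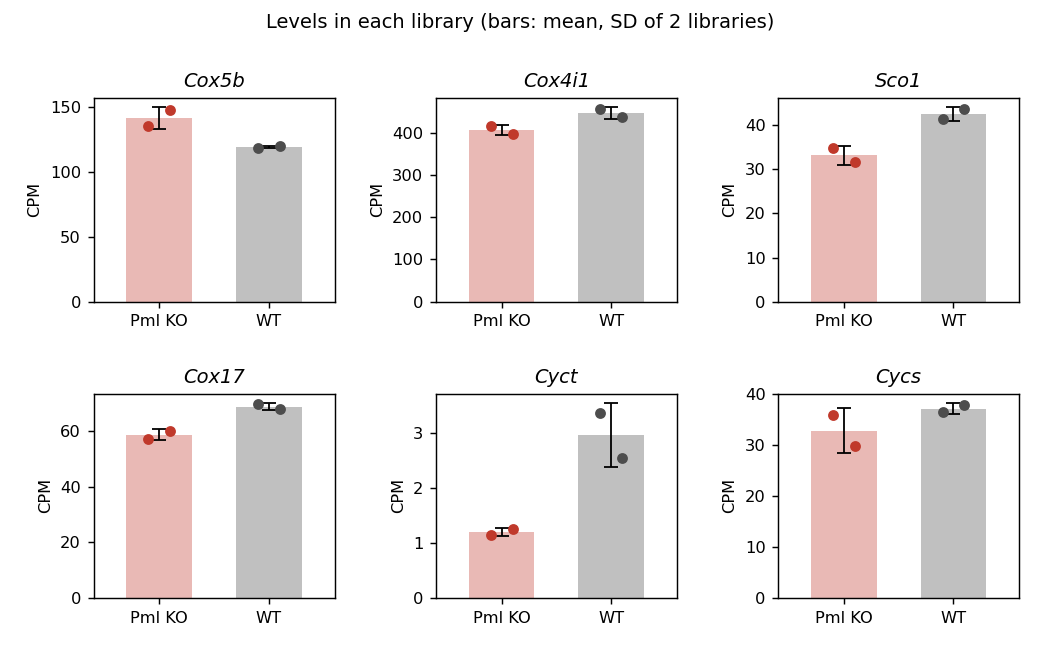
CPM (y axis, from 0) of 6 genes in Pml knockout and wild-type libraries. Bars are means, error bars SD of 2 libraries, and points single libraries. Cox5b is higher in both knockout libraries, and Sco1, Cox17 and Cyct are lower, with an adjusted p under 0.05 by limma, while Cox4i1 and Cycs did not pass.

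None of the listed genes that supply or regulate the chain, complex I apart, was called with all 4 libraries and genotype as the only term. Of all tested genes 5.41% were called, so a count of 0 among 8 to 16 genes says little about them. Among 8 other subunits and ATP synthase regulators 0 were called, and the smallest adjusted p was that of Atpif1, the inhibitor of ATP hydrolysis by complex V, with 144 and 154 CPM in the knockout and 134 and 132 CPM in wild type (log2 fold change 0.16, adjusted p = 0.0817). Of 14 citric acid cycle genes 0 were called. The log2 fold change was below 0 in 10 of them (71.4%, against 51% of all tested genes), with a median of -0.05. Both knockout libraries lay below wild type in 7 of the 14 (50%, against 25.5%). The highest of the 14 was citrate synthase, Cs (log2 fold change 0.15, adjusted p = 0.0546 by limma). It had 388 and 408 CPM in the knockout and 356 and 359 CPM in wild type. With replicate number added as a term, both Atpif1 and Cs were called. Without knockout replicate 1 their log2 fold changes were 0.21 and 0.19. Coenzyme Q synthesis, with 13 genes, and the regulators of mitochondrial biogenesis, with 16, also had 0 called, and their medians were -0.05 and -0.01. The smallest adjusted p values there were 0.176 for Pprc1, a coactivator related to PGC-1, and 0.223 for Pdss1, which makes the tail of coenzyme Q. Ppargc1a was listed at 0 in every library, as were Sco2, a complex IV assembly factor, and Ndufs5, a complex I subunit. The authors' counting rules are not stated, so a value of 0 cannot be read as absence of the transcript.

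Complex I, the NADH dehydrogenase, feeds the same chain and is not among the 39 genes. Of 35 tested subunits 27 had a log2 fold change below 0 (77.1%, against 51% of all tested genes), and the median was -0.08. Both knockout libraries lay below wild type in 19 (54.3%, against 25.5%). Ndufb6, an accessory subunit, was the 1 of 35 called (2.86%, against 5.41%), with 54.7 and 49.2 CPM in the knockout and 64.2 and 60.3 CPM in wild type (-0.26, adjusted p = 0.0359). The adjusted p was 0.239 without knockout replicate 2, 0.198 without wild-type replicate 1, 0.0643 with DESeq2 and 0.0957 with no filter on low values.

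**Figure D4:**
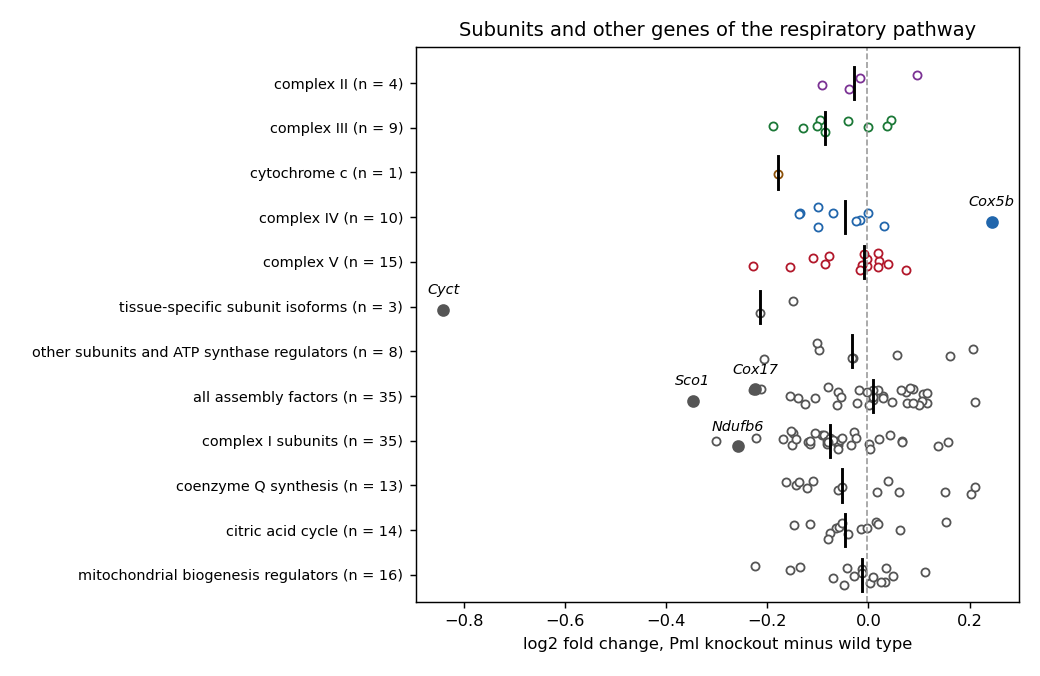
Log2 fold change, Pml knockout minus wild type (x axis), of the members by complex and of the other listed genes of the pathway. Each point is a gene, each black bar the median of its list, and filled named points have an adjusted p under 0.05. The dashed line is the median of all tested genes. Cyct lies farthest left at -0.84 and Cox5b farthest right at 0.24.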

How the data were processed

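RNA-seq of 2 Pml-/- and 2 wild-type libraries was used, and the other 2 of the 6 samples, proximity-labelled chromatin, were not analysed here. Per the submitters' processing notes, the authors trimmed reads with cutadapt, aligned them with TopHat to mm10 and used edgeR. Their versions, annotation and counting rules are not stated. The deposited table holds a CPM value (reads per 1000000) for each library, beside a log2 fold change of wild type over knockout, a p-value, a false discovery rate and a mean log2 CPM from the authors.

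Here limma-trend (limma 3.58.1, R 4.3.3) was fitted to log2(CPM + 1) over 12710 genes that averaged 1 CPM or more, with no term but genotype, and Benjamini-Hochberg adjustment over all of them. Dividing the CPM values by the value of 1 read gave whole reads for 100% of values (tolerance 0.001). On these, edgeR 4.0.16 (quasi-likelihood) called 620 of 14782 genes, and DESeq2 1.42.0 was a further alternative. The fitting script was tested on simulated data. Symbols were matched to RefSeq GRCm38.p6 tables, 38 members directly and Atp5f1 by an older symbol; promoter letters were searched on both strands.

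The members, lists and motif letters were chosen with earlier results of these data known. Eif2s3y was named as the tested gene with the lowest log2 fold change, and Sco2 and Ndufs5 for their values of 0. Named were all 39 members, Pml, the called genes of each list (or, if none, the one with the smallest adjusted p) and the tissue isoforms with a mean of at least 1 CPM.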

Additional observations from a re-analysis of the deposited data

How the results depend on the processing

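With 2 libraries per genotype, small differences rest on single libraries. Of 39 members, 12 changed sign under at least 1 of 12 alternatives, none with an absolute log2 fold change over 0.0866, and 7 were called under at least 1. The share of all genes called under at least 1 alternative was not counted, so the 7 have no background to be set against. Single alternatives called 1.59 to 9.43% of the genes they tested. With no filter on low values 0 members were called higher and 298 genes were called in all. Leaving out each library in turn, where the lone library is assumed to vary like the other genotype's pair, gave 0 to 1 members called higher, 0 to 5 called lower and 367 to 869 genes called. It gave medians of -0.044 to -0.0099 for the members, -0.052 to -0.0037 for complex II, -0.11 to -0.049 for complex III, -0.059 to -0.048 for complex IV and -0.039 to 0.0068 for complex V. The members' median was -0.018 with DESeq2.

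Replicate numbers are shared by the genotypes. Deviations of same-numbered libraries correlated at 0.12 across genes, and with 2 pairs this does not show that the numbers pair the libraries. With the replicate block 1198 genes were called (9.43%), and 3 members were called lower (Uqcr11, Atp5e and Atp5j2), against 5.66% of all genes. Cs (adjusted p = 0.0297) and Atpif1 (0.0381) were then also called.

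Signs turned for Uqcrb with TMM (0.0020), edgeR (0.0052) and DESeq2 (0.0083), for Cox6b1 (0.0023, 0.0052 and 0.0084 in that order), for Atp5h with edgeR (0.0018) and DESeq2 (0.0049) and for Atp5g1 with DESeq2 (0.0030). Without single libraries, log2 fold changes spanned 0 for Sdhd (-0.060 to 0.025), Uqcrb (-0.061 to 0.060), Cox6b1 (-0.074 to 0.074), Cox7b (-0.062 to 0.026), Atp5c1 (-0.070 to 0.052), Atp5f1 (-0.039 to 0.0060), Atp5g1 (-0.0099 to 0.0031), Atp5g3 (-0.19 to 0.015), Atp5h (-0.042 to 0.036), Atp5k (-0.071 to 0.044), Atp5l (-0.084 to 0.23), Atp5o (-0.024 to 0.063), Cox6b2 (-0.31 to 0.016), Sdhaf2 (-0.0037 to 0.18) and Uqcc1 (-0.0059 to 0.24). The causes were not tested.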
